A study of Mus musculus with 12 samples.

Results

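The protein synthesis of epiblast-like cells (EpiLCs) was compared with that of the mouse embryonic stem cells (ESCs) they came from, by the sequencing of ribosome footprints (RPFs), the stretches of mRNA that ribosomes shield from nuclease. Genes entered the comparison if they had 3 or more CPM (counts scaled to the size of the library) in 3 or more of the 6 footprint libraries, and 11120 of the 22462 genes in the deposited table did. Trpm1 lay just outside this limit, with 2.99 CPM in the library that decided it. The 3 ESC libraries came from cells grown in Knockout DMEM with fetal bovine serum, LIF and 2i, the inhibitors PD0325901 and CHIR99021. The 3 EpiLC libraries came from ESCs that were plated in that medium, lost LIF and 2i a day later and were harvested about 56 hours after that. Total RNA was sequenced from both states, in 3 libraries each, and is used here only beside the footprints. The labels give neither a name nor a genotype for the line, while the materials of the study list a V6.5 reporter ESC line, with mCherry and GFP under the control of microRNA genes, for this differentiation. The study calls its replicates biological, but nothing says that they were separate cultures, and p-values then measure only the spread between these samples.

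ESCs held in LIF and 2i stand for the naive epiblast of the blastocyst, and EpiLCs for the epiblast soon after implantation, before germ layers form. In the embryo this step turns a clump of cells into a polarised epithelium on a basement membrane, a sheet of laminin, collagen IV, nidogen and perlecan. Most secreted and membrane proteins, though not all, are made by ribosomes at the endoplasmic reticulum (ER), and nuclear and cytosolic proteins mostly by free ribosomes. Footprints count the ribosomes engaged on a coding sequence, so the share of footprints on a class of genes is close to the share of ribosomes at work on it. A share says nothing of the amount of protein made per cell, which these libraries do not measure.

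The libraries held 2681439 (EpiLC replicate 2) to 11359352 counts (ESC replicate 3), so that 3 counts stood for 1.12 CPM in the shallowest and 0.264 CPM in the deepest. The labels were checked against markers: Zfp42, Esrrb and Klf4 of the naive state summed to 1453 to 1588 CPM in ESC and 53.8 to 111 CPM in EpiLC, and Dnmt3b, Otx2 and Fgf5 of the later state to 106 to 131 CPM and 1397 to 1645 CPM. The libraries of a state were not alike for genes near 0 in it. EpiLC replicate 1 held more of the naive genes than its partners, with 7.43 CPM of Klf4 against 3.36 and 0.924, and ESC replicate 1 held most ESC reads of the genes that rose from near 0, with 60 reads of Thbs1 against 8 and 4. For named genes near 0 in a state, the log2 change is given with and without single libraries of that state.

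Markers of other cell types were mostly low, though some were higher in EpiLC. Fibroblast markers (8 genes) summed to 18.5 to 23.2 CPM in ESC and 39.2 to 47.1 CPM in EpiLC, with Postn at 0 in all 6 libraries. Thy1 went up, with 3.85, 2.72 and 3.96 CPM in ESC and 22.7, 18.3 and 15.15 CPM in EpiLC. Pdgfrb went down, with 15.0, 16.1 and 11.2 CPM in ESC and 6.2, 1.87 and 5.36 CPM in EpiLC. Endoderm markers (10 genes) summed to 8.16 to 9.93 CPM and 37.3 to 43.4 CPM, most of the latter on Dab2 and Amn, with Afp and Ttr at 0. Neural markers (7 genes) lay at 20.5 to 28.1 CPM and 34.9 to 41.8 CPM with Hes5 at 0, and mesoderm markers (7 genes) at 5.55 to 6.49 CPM and 2.27 to 3.73 CPM. Trophoblast markers (8 genes) lay at 75.5 to 90.9 CPM and 27.3 to 39.9 CPM with Elf5 at 0, most of the ESC value on Tfap2c. Markers of 2-cell-like cells (6 genes) lay at 2.36 to 4.84 CPM and 0.413 to 1.66 CPM with Zfp352 at 0. By the limma limits given below, 2 fibroblast, 2 endoderm, 1 trophoblast and 1 neural marker were higher in EpiLC. Lower were 1 fibroblast, 2 trophoblast and 1 mesoderm marker. Only 3 fibroblast, 3 endoderm, 4 trophoblast, 3 neural and 1 mesoderm marker were tested. Over all tested genes 14.4% were higher and 10.5% lower. Krt7 (trophoblast) and Pax6 (neural) went up but reached 3 CPM in EpiLC libraries only, so they had to differ. The part of such cells in the changes below was not tested.

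To turn an ESC footprint profile into an EpiLC profile, 17.5% of footprints would have to move to other genes, as a mean over the 9 pairs of libraries (16.9% to 17.99%). The same distance was 3.93% to 5.12% between ESC libraries and 4.55% to 5.63% between EpiLC libraries, so the states differed by more than their replicates. With every library thinned to the smallest, the distance between states was 17.7%, against 4.56% to 5.79% and 4.78% to 5.85% within them.

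**Figure D1:**
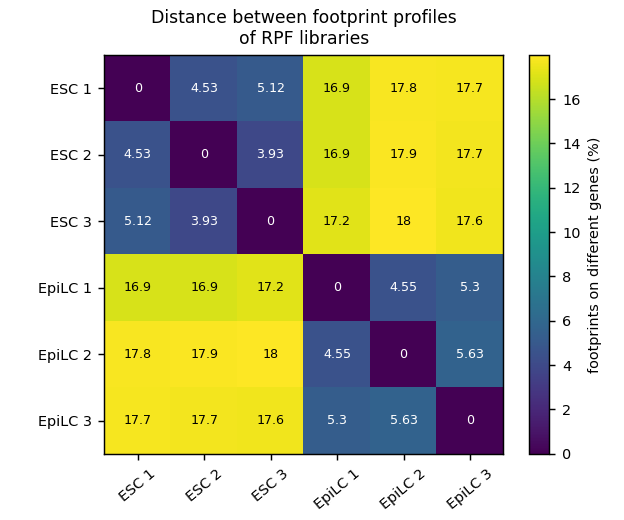
Percent of footprints that lie on different genes for each pair of footprint libraries, as a colour and a number. Pairs of an ESC and an EpiLC library lie between 16.9% and 17.99%, and pairs within a state between 3.93% and 5.63%.

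In a limma fit, 1602 genes were higher in EpiLC (14.4% of the 11120 tested) and 1164 were lower (10.5%), at an adjusted p below 0.05 and a log2 change beyond 1. Below, "rose" and "fell" are used of single genes that met both limits. The median log2 change of all tested genes was -0.0036. The CPM values of the states did not overlap for 63.9% of tested genes. The filter itself fixed part of the calls: 538 genes reached 3 CPM in EpiLC libraries only, of which 528 rose, and 316 in ESC libraries only, of which 306 fell. The genes that rose held 3.06% of footprints in ESC and 10.8% in EpiLC, and those that fell 9.99% and 2.86%. These shares follow from how the genes were chosen and give the scale only.

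Synthesis was spread over about as many genes in both states. The genes that together held 50% of footprints numbered 787, 799 and 773 in the ESC libraries and 808, 781 and 788 in the EpiLC libraries. No gene dominated the shift either, since 312 genes made up 50% of all gained share and 314 genes 50% of all lost share.

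Tpm1, a tropomyosin that lies along actin filaments, had the largest gain, with 199.5, 174 and 166 CPM in ESC and 2676, 2577 and 2420 CPM in EpiLC (log2 change 3.8 ± 0.07 SE, limma adjusted p 4.20e-19). Its share of all footprints went from 0.01798% to 0.256%. Lrp2, the endocytic receptor megalin, had 166, 152 and 133 CPM in ESC and 2448, 2549 and 2409 CPM in EpiLC (log2 change 4.01 ± 0.07 SE, limma adjusted p 4.20e-19). No ESC library came near an EpiLC library for either gene. Fat1, an atypical cadherin, had 859, 867 and 971 CPM in ESC and 3015, 3049 and 2826 CPM in EpiLC (log2 change 1.68 ± 0.06 SE, limma adjusted p 1.18e-14). Myh9, a heavy chain of non-muscle myosin, had 1579, 1511 and 1669 CPM in ESC and 3596, 3930 and 3417 CPM in EpiLC (log2 change 1.15 ± 0.06 SE, limma adjusted p 2.23e-12). Eef2 moves the ribosome along the mRNA, and its libraries also stood apart. It had 2238, 2173 and 2460 CPM in ESC and 4216, 4515 and 4327 CPM in EpiLC, and passed the p threshold but not the fold limit (log2 change 0.88 ± 0.06 SE, limma adjusted p 5.76e-11). Dnmt3b, described with chromatin below, completed the 6 largest gains.

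Fn1, fibronectin, a matrix protein that integrins bind, had the largest loss, with 3661, 3447 and 3564 CPM in ESC and 817, 769 and 729.5 CPM in EpiLC (log2 change -2.24 ± 0.06 SE, limma adjusted p 5.49e-17). Its share dropped from 0.356% to 0.0772% of all footprints. Asns, which makes asparagine, had 2793, 2729 and 2984 CPM in ESC and 877, 752 and 785 CPM in EpiLC (log2 change -1.85 ± 0.06 SE, limma adjusted p 5.28e-15). Lamc1, a laminin chain, and Spp1, osteopontin, are described with the matrix. Aars, which loads alanine onto its tRNA, had 2795, 2904 and 2966 CPM in ESC and 1527, 1548 and 1534 CPM in EpiLC (log2 change -0.94 ± 0.053 SE, limma adjusted p 6.04e-12). Trim28, a corepressor of retroelements, had 3347, 3642 and 3755 CPM in ESC and 2398, 2474 and 2268 CPM in EpiLC (log2 change -0.63 ± 0.06 SE, limma adjusted p 1.02e-08). Aars and Trim28 stayed within the fold limit, but for each of these genes every ESC library lay above every EpiLC library.

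**Figure D2:**
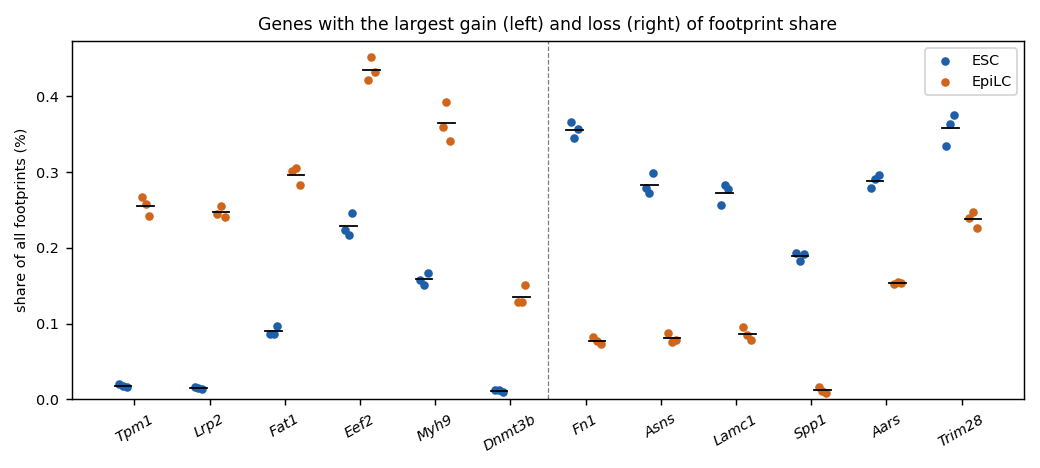
Share of all footprints (percent) in each library of the 6 genes with the largest gain, left of the dashed line, and the 6 with the largest loss, right of it, with black bars at means of 3 libraries. Tpm1, Lrp2 and Dnmt3b start near 0 in ESC, and Fn1 drops to 0.0772% in EpiLC.

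Genes were then grouped into 32 lists in 5 places of the cell, which took in 3504 genes of the table, 2446 of them tested. In 13 lists every EpiLC library had a higher share of footprints than every ESC library, in 12 a lower share, and 7 lists overlapped. An exact permutation test of 3 libraries against 3 cannot go below p = 0.1 (two-sided), so no share can pass a threshold of 0.05 and shares are described with their spread. Genes in no list took 54.7% and 53.9% of footprints. Counts of genes up and down in a list are to be read beside the 14.4% higher and 10.5% lower of all 11120 tested genes.

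**Figure D3:**
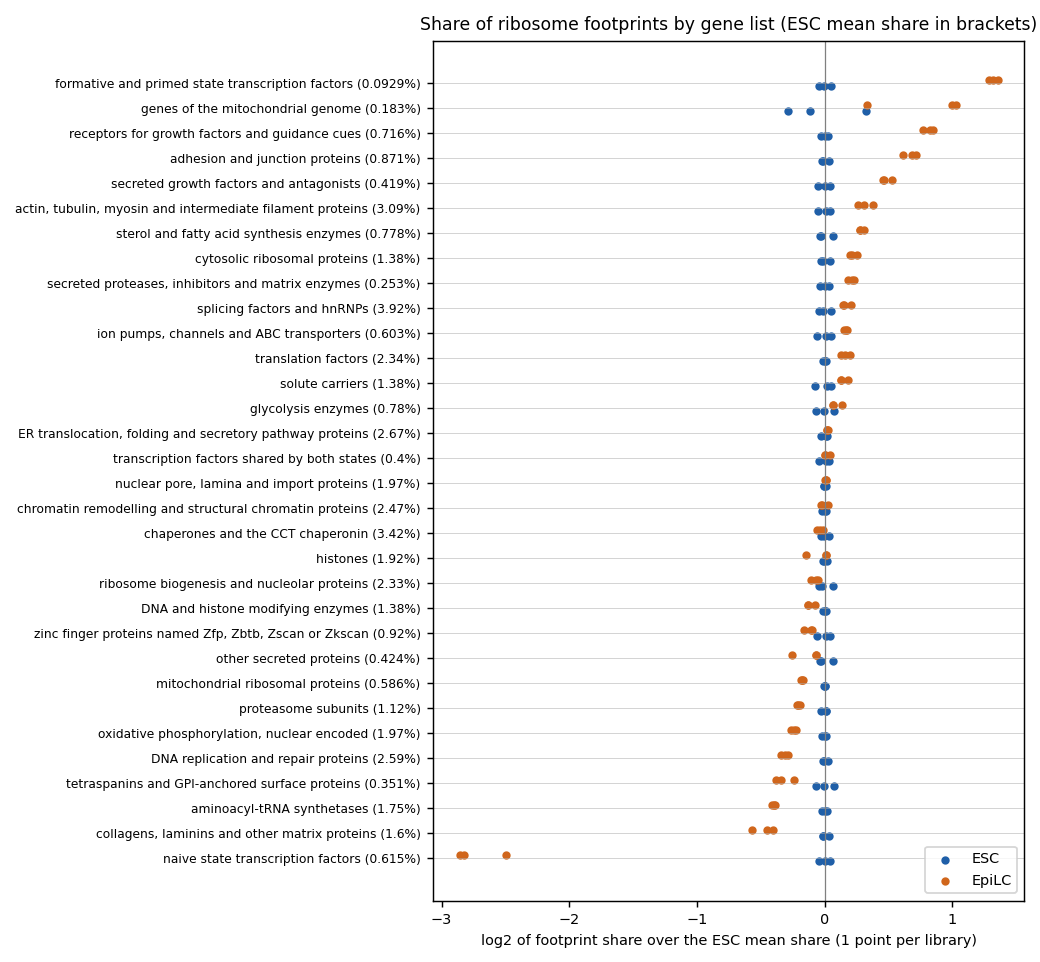
Footprint share of each of the 32 lists in each library, as log2 of the share over the ESC mean of that list, with the ESC mean share in brackets. Naive state transcription factors lie lowest and formative and primed state factors highest, while chaperones, histones and nuclear pore proteins lie near 0 with overlapping libraries.

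Secreted proteins took a smaller share of footprints in EpiLC although more of their genes rose than fell. The 452 listed genes took 2.72%, 2.65% and 2.73% of footprints in ESC and 2.45%, 2.51% and 2.299% in EpiLC, which was 10.3% lower (2.697% ± 0.0423 in ESC and 2.42% ± 0.109 in EpiLC, SD, n = 3). Of the 221 tested, 97 rose (43.9%) and 49 fell (22.2%), with a median log2 change of 0.67, beside 14.4%, 10.5% and -0.0036 over all tested genes. Of these 221, 43 reached 3 CPM in EpiLC libraries only and 11 in ESC libraries only, and had to differ. The lower share rested on few genes: without the 3 genes of largest loss (Fn1, Lamc1, Spp1) and the 3 of largest gain (Col18a1, Lama5, Lamb1) it was 7.25% higher. With counts divided by counted length the change of the whole list was -2.001%.

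These are the 3 secreted genes of largest gain and the 3 of largest loss of share, and the start of each coding sequence is shown because it encodes the stretch that usually directs a chain to the ER. The first 120 bases from the start codon (Gencode M21, mm10) are printed, with the codons of the most hydrophobic window of 19 residues among the first 40 in capitals. Reads on the first codons were left out of the counts.
Col18a1 (chr10:77113557-77113676, minus strand, 1 exon): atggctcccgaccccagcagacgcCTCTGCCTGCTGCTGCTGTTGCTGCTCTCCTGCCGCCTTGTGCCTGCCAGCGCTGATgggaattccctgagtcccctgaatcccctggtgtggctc
Lama5 (chr2:180225683-180225802, minus strand, 1 exon): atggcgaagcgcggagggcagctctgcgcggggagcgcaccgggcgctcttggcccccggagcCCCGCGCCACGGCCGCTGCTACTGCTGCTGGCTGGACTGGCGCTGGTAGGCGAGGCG
Lamb1 (chr12:31265421-31265540, plus strand, 1 exon): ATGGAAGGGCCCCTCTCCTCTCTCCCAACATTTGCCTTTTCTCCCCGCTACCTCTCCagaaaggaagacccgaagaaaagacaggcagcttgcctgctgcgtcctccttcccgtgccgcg
Fn1 (chr1:71652863-71652982, minus strand, 1 exon): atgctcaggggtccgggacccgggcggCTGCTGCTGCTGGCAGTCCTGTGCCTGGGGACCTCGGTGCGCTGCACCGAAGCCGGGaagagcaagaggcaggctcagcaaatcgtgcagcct
Lamc1 (chr1:153332420-153332539, minus strand, 1 exon): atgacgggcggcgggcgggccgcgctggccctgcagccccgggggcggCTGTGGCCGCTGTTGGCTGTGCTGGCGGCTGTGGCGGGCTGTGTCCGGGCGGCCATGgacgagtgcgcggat
Spp1 (chr5:104436389-104437681, plus strand, 4 exons): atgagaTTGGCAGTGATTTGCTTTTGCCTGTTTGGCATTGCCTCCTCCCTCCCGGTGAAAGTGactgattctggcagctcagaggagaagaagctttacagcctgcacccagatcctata
On the Kyte-Doolittle scale, where higher is more hydrophobic, the window in capitals averaged 2.09 in Spp1, 1.88 in Col18a1, 1.87 in Lamc1, 1.52 in Fn1, 1.28 in Lama5 and 0.121 in Lamb1. In Lamb1 the annotated sequence first reached a window of 1.6 at codon 51, past the printed bases. Its capitals therefore need not mark the stretch that directs the chain to the ER, and other annotated starts were not examined. The values of genes that gained and genes that lost overlapped.

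Matrix proteins moved both ways. Collagens, laminins and other matrix proteins (130 listed, 73 tested, 38 up and 18 down) took 1.58%, 1.58% and 1.64% of footprints in ESC and 1.17%, 1.21% and 1.08% in EpiLC, 27.96% lower, with a median log2 change of 1.13 over its tested genes. With counts divided by length the change was -48.4%. Spp1 had 1936, 1825 and 1916 CPM in ESC and 159.6, 106 and 88.9 CPM in EpiLC (log2 change -4.08 ± 0.12 SE, limma adjusted p 5.77e-16). Col18a1, a collagen of basement membranes, had 409, 420.3 and 431 CPM in ESC and 1253, 1378 and 1292 CPM in EpiLC (log2 change 1.6 ± 0.06 SE, limma adjusted p 3.47e-14). Both genes kept the states apart in every library. The nidogens, which link laminin to collagen IV, both fell: Nid1 had 721, 676 and 740 CPM in ESC and 73.3, 63.8 and 40.3 CPM in EpiLC (log2 change -3.71 ± 0.14 SE, limma adjusted p 1.31e-14), and Nid2 had 1079, 1063 and 1147 CPM in ESC and 544, 508 and 459 CPM in EpiLC (log2 change -1.16 ± 0.07 SE, limma adjusted p 1.75e-11). Thbs1, thrombospondin, had 7.45, 1.68 and 0.352 CPM in ESC and 426, 470.3 and 381 CPM in EpiLC (log2 change 8.12 ± 0.54 SE, limma adjusted p 9.26e-11), and its log2 change was 6.6 without ESC replicate 3 and 9.26 without ESC replicate 1. The collagen IV chains Col4a1 and Col4a2 rose by 1.17 and 1.2 on the log2 scale, while perlecan (Hspg2) and agrin (Agrn), at log2 changes of 0.17 and 0.048, were not called.

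A laminin joins an alpha, a beta and a gamma chain, and its chains moved in opposite directions. The chains were singled out after their values were seen. The 5 alpha and 3 beta chains and the gamma chain Lamc1 are described, of which Lama2 did not pass the filter. Levels are given as CPM per kb of counted length (RPKM), which allows genes to be compared. Lama5 had 36.2, 36.6 and 38.7 RPKM in ESC and 115, 122 and 107 RPKM in EpiLC, and Lama1 had 23.6, 26.3 and 28.03 RPKM in ESC and 4.28, 3.402 and 2.89 RPKM in EpiLC. Lamb1 had 32.7, 28.1 and 32.1 RPKM in ESC and 143, 144 and 144 RPKM in EpiLC, and Lamb2 had 32.6, 31.98 and 30.8 RPKM in ESC and 11.1, 12.9 and 11.7 RPKM in EpiLC. Lama1 and Lamb2 thus stood near Lama5 and Lamb1 in ESC and far under them in EpiLC. The log2 changes were 1.58 for Lama5, 2.17 for Lamb1, -2.93 for Lama1 and -1.47 for Lamb2 (limma adjusted p 9.51e-11 for Lamb2 and smaller for the others). Lamc1, a gamma chain, had 537, 592 and 582 RPKM in ESC and 199.7, 177 and 164 RPKM in EpiLC (log2 change -1.7 ± 0.07 SE, limma adjusted p 2.84e-14). Lama3 fell as well, with a log2 change of -2.03, and Lamb3 and Lama4 were not called.

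Summed by kind, alpha chains had 69.6 ± 3.68 RPKM in ESC and 121 ± 7.98 RPKM in EpiLC (SD, n = 3), and beta chains had 64.1 ± 2.54 RPKM in ESC and 158 ± 1.19 RPKM in EpiLC. The ratio of Lamc1 density to the alpha sum over the libraries was 7.94 to 8.51 in ESC and 1.38 to 1.63 in EpiLC, and to the beta sum it was 8.03 to 9.56 in ESC and 1.04 to 1.27 in EpiLC. Lamc1 was thus made at a density closer to those sums in EpiLC. In total RNA its ratio to the alpha sum was 3.38 to 3.77 in ESC and 0.699 to 0.8099 in EpiLC, and to the beta sum 6.02 to 7.01 in ESC and 0.757 to 0.894 in EpiLC. These ratios were not tested.

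**Figure D4:**
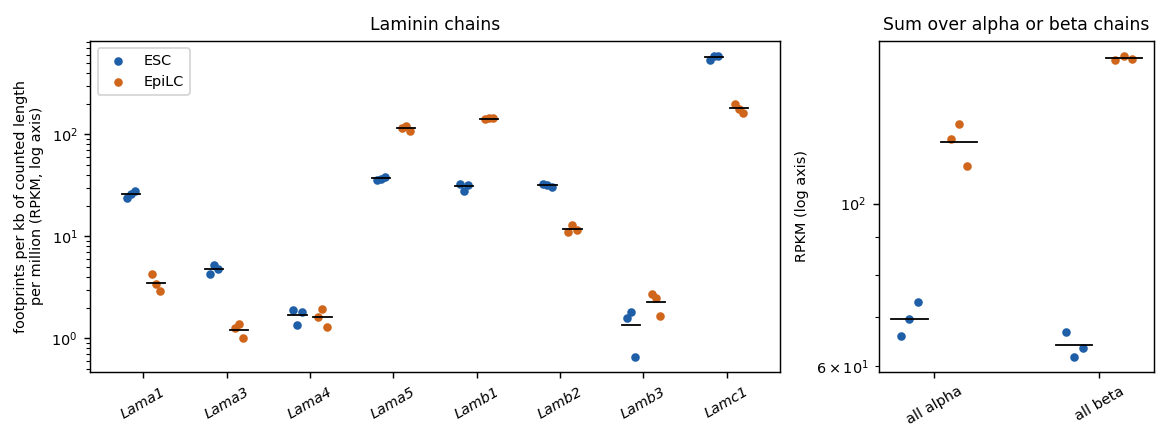
Footprint density (RPKM, log axis) of 8 tested laminin chains in each library (left) and its sum over alpha and over beta chains (right), with black bars at means of 3 libraries. Lama5 and Lamb1 are higher and Lama1, Lama3, Lamb2 and Lamc1 lower in EpiLC, and both sums are higher in EpiLC.

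Growth factors and their antagonists took a larger share (113 listed, 58 tested, 25 up and 14 down). They had 0.432%, 0.405% and 0.421% of footprints in ESC and 0.58%, 0.604% and 0.575% in EpiLC, 39.9% higher. Lefty1, an antagonist of Nodal, had 63.2, 52.1 and 48.6 CPM in ESC and 492, 568 and 568 CPM in EpiLC (log2 change 3.29 ± 0.1 SE, limma adjusted p 1.10e-15), whereas Lefty2, of the same family, fell from a mean of 132 to 43.9 CPM. Mdk, the heparin-binding factor midkine, had 169, 144 and 154 CPM in ESC and 588, 558 and 593 CPM in EpiLC (log2 change 1.86 ± 0.08 SE, limma adjusted p 4.54e-14). Ccn1 and Ccn2, matrix-bound signalling proteins, rose from a mean of 32.8 to 346 CPM and from a mean of 66.5 to 296 CPM. Sfrp1, which binds Wnt ligands, led the losses, falling from a mean of 650.2 to 166 CPM. Fgf5, a marker of EpiLCs, had 4, 0 and 0 counts in ESC and 112, 41 and 146 counts in EpiLC and reached 3 CPM in EpiLC libraries only, so it had to differ, and its ESC reads are too few for a firm fold.

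Secreted proteases and inhibitors were 15.4% higher in share (141 listed, 51 tested, 22 up and 9 down), 24.6% higher with counts divided by length and 22.1% higher without genes that share counted bases. Mmp2, which cuts collagen IV, rose from a mean of 20.7 to 142 CPM. Other secreted proteins were 8.35% lower (68 listed, 39 tested, 12 up and 8 down), a change that was -4.47% without EpiLC replicate 3, -2.35% with medians of 3 libraries and -13.4% with counts divided by length. The lower share rested on few genes. Trap1a, which fell from a mean of 424.6 to 22.1 CPM, alone changed by -0.04025 points of footprints, more than the -0.03538 of the list. Enpp2, autotaxin, which makes lysophosphatidic acid, had 2.48, 0.419 and 0 CPM in ESC and 134, 106 and 141 CPM in EpiLC (log2 change 8.61 ± 0.81 SE), a log2 change that was 6.58 without ESC replicate 3 and 9.72 without ESC replicate 1. Apod, a lipocalin, had 36.2, 37.9 and 39.7 CPM in ESC and 1.03, 0 and 0 CPM in EpiLC (log2 change -7.18 ± 0.65 SE), a log2 change that was -6.32 without EpiLC replicate 3 and -8.2 without EpiLC replicate 1. Both genes passed the filter through the higher state only and had to differ, and the lower state rests on a few reads, so the size of the folds is loose.

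Genes grouped under the membrane took a larger share in every EpiLC library. This group includes the lists of ER and secretory pathway proteins and of sterol and fatty acid synthesis enzymes, described below. Those lists are not limited to proteins that sit in a membrane. In ESC they took 2.67% and 0.778% of footprints. They changed by 0.0406 and 0.171 points of footprints, beside 1.42 points for the whole group. The 1335 listed genes took 7.25%, 7.31% and 7.54% of footprints in ESC and 8.81%, 8.85% and 8.71% in EpiLC, 19.3% higher (7.37% ± 0.157 in ESC and 8.79% ± 0.0724 in EpiLC, SD, n = 3). Of the 738 tested, 174 rose (23.6%) and 110 fell (14.9%), beside 14.4% and 10.5% over all tested genes. The median log2 change was 0.08, and 58 reached 3 CPM in EpiLC libraries only and 35 in ESC libraries only. With counts divided by length the share was 11.3% higher. It was 14.8% higher without the 3 genes of largest gain (Lrp2, Fat1, Epcam) and the 3 of largest loss (Cd9, Alpl, Kit).

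**Figure D5:**
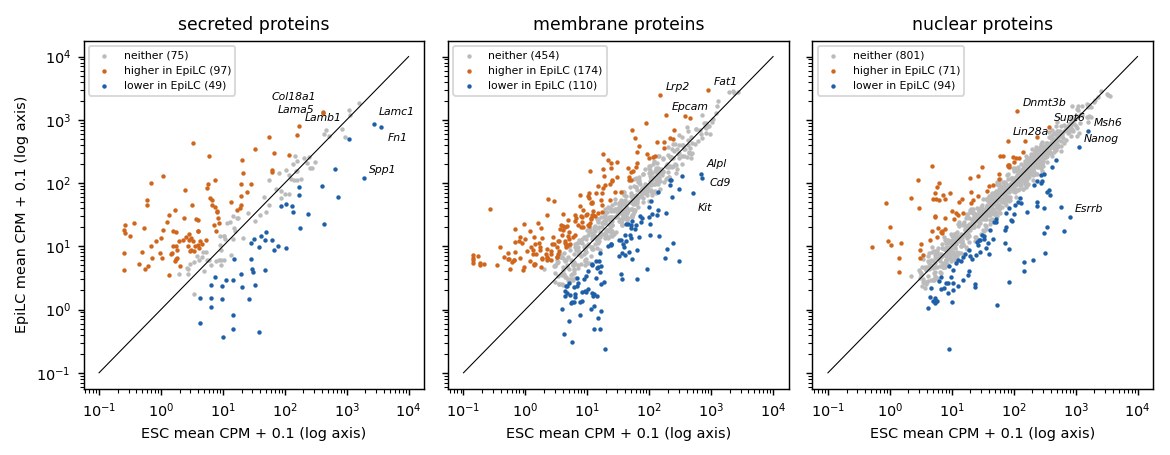
Mean CPM in ESC and EpiLC of each tested gene listed as secreted, membrane or nuclear, on log axes with 0.1 added, beside the line of equal values. Coloured points rose or fell by the limma test, with their numbers in the legend (97 and 49, 174 and 110, 71 and 94), and the 3 genes of largest gain and of largest loss are named.

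Receptors for growth factors and guidance cues (240 listed, 130 tested, 44 up and 22 down) took 0.702%, 0.717% and 0.728% of footprints in ESC and 1.26%, 1.28% and 1.22% in EpiLC, 75.6% higher, or 35.2% higher with counts divided by length. Lrp2, described above, was in this list and gained 0.232 points of footprints, beside 0.541 for the whole list. Notch3, a receptor for ligands on neighbouring cells, had 92.97, 86.2 and 83.2 CPM in ESC and 839, 936 and 847 CPM in EpiLC (log2 change 3.28 ± 0.08 SE, limma adjusted p 3.23e-17). Kit, the receptor for stem cell factor, had 482, 513 and 511 CPM in ESC and 78.5, 62.3 and 68.3 CPM in EpiLC (log2 change -2.87 ± 0.1 SE, limma adjusted p 2.73e-15). The chains of the LIF receptor fell too, Lifr from a mean of 104 to 15.1 CPM and Il6st from a mean of 71.8 to 30.2 CPM. Ffar3, which binds short-chain fatty acids, had 134, 84 and 255 counts in ESC and 2, 0 and 0 counts in EpiLC and passed the filter through ESC only.

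Adhesion and junction proteins (213 listed, 87 tested, 32 up and 19 down) took 0.857%, 0.864% and 0.891% of footprints in ESC and 1.43%, 1.4% and 1.33% in EpiLC, 59.3% higher. Fat1 was in this list and gained 0.206 points of footprints, beside 0.516 for the whole list. Epcam, a surface protein of epithelia, had 190, 192 and 181 CPM in ESC and 1183, 1123 and 1211 CPM in EpiLC (log2 change 2.62 ± 0.07 SE, limma adjusted p 3.27e-17). Cdh3, a cadherin, and Cldn6 and Cldn7, claudins of tight junctions, rose by 2.49, 3.95 and 3.4 on the log2 scale, and Itgb1, the integrin chain shared by many matrix receptors, by 1.18. Other adhesion genes went down. Jam2, a junctional adhesion molecule, had 317, 301 and 285 CPM in ESC and 13.6, 1.49 and 2.03 CPM in EpiLC (log2 change -6.25 ± 0.42 SE, limma adjusted p 1.21e-10), a log2 change that was -5.58 without EpiLC replicate 3 and -7.29 without EpiLC replicate 1. Pecam1, known from ESCs and endothelium, had 243, 249.5 and 234 CPM in ESC and 19.4, 5.22 and 8.31 CPM in EpiLC (log2 change -4.55 ± 0.25 SE, limma adjusted p 4.04e-12), a log2 change that was -4.3 without EpiLC replicate 2 and -5.08 without EpiLC replicate 1.

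Carriers and channels differed less. Solute carriers were 10.9% higher in share (384 listed, 208 tested, 39 up or 18.8% and 32 down or 15.4%). Ion pumps, channels and ABC transporters were 11.99% higher (260 listed, 106 tested, 33 up or 31.1% and 21 down or 19.8%). Slc2a1, the glucose transporter GLUT1, had 365, 337 and 415 CPM in ESC and 1048, 1133 and 1217 CPM in EpiLC (log2 change 1.56 ± 0.08 SE, limma adjusted p 1.60e-12). Slc16a3, a lactate exporter, rose from a mean of 58.02 to 518 CPM. Gja1, a gap junction protein, rose from a mean of 52.8 to 691 CPM. Gria3, a subunit of glutamate receptors, had 8, 5 and 0 counts in ESC and 58, 37 and 55 counts in EpiLC and passed the filter through EpiLC only, so it had to differ.

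Tetraspanins and GPI-anchored proteins were 19.9% lower in share although more genes rose than fell (57 listed, 39 tested, 16 up and 7 down), and the change was -8.55% with counts divided by length. Cd9, a tetraspanin, had 683, 660.6 and 794 CPM in ESC and 139, 122 and 94.8 CPM in EpiLC (log2 change -2.66 ± 0.11 SE, limma adjusted p 1.07e-13). Alpl, the alkaline phosphatase used to stain ESC colonies, had 674, 702 and 684 CPM in ESC and 144, 137 and 134 CPM in EpiLC (log2 change -2.34 ± 0.07 SE, limma adjusted p 1.42e-15). Enzymes of sterol and fatty acid synthesis were 22% higher (45 listed, 41 tested, 3 up and 4 down), or 12.3% higher with counts divided by length. Proteins of the ER and the secretory pathway, through which most secreted and membrane proteins pass, overlapped at 2.67% ± 0.0515 in ESC and 2.71% ± 0.0129 in EpiLC (136 listed, 127 tested, 7 up and 5 down).

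Nuclear proteins as a whole shifted little. The 1133 listed genes took 18.9%, 18.5% and 18.4% of footprints in ESC and 17.8%, 17.9% and 17.8% in EpiLC, 4.11% lower, and with counts divided by length the change was -0.4301%. Of the 966 tested, 71 rose (7.35%) and 94 fell (9.73%), beside 14.4% and 10.5% over all tested genes, and 10 reached 3 CPM in EpiLC libraries only and 15 in ESC libraries only.

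Transcription factors of the naive state lost most of their footprints. The 19 listed, all tested, took 0.595%, 0.616% and 0.633% of footprints in ESC and 0.109%, 0.08499% and 0.0869% in EpiLC, 84.8% lower, and 18 of them fell. They are known markers of this state and were chosen with results of these data known, so their direction is not independent evidence. Esrrb had 765, 788 and 844 CPM in ESC and 45.2, 23.5 and 17.7 CPM in EpiLC (log2 change -4.93 ± 0.19 SE, limma adjusted p 2.42e-14), a log2 change that was -4.52 without EpiLC replicate 3 and -5.36 without EpiLC replicate 1. Tfcp2l1 had 699, 596 and 655 CPM in ESC and 32.4, 11.6 and 8.68 CPM in EpiLC (log2 change -5.45 ± 0.26 SE, limma adjusted p 5.78e-13), which was -4.89 without EpiLC replicate 3 and -6.09 without EpiLC replicate 1. Zfp42 had 544, 595 and 612 CPM in ESC and 58.2, 32.5 and 35.1 CPM in EpiLC (log2 change -3.84 ± 0.14 SE, limma adjusted p 1.42e-14). In all 3 EpiLC replicate 1 was the highest EpiLC library, yet far under ESC. Nanog kept more, with 1052, 1151 and 1155 CPM in ESC and 398, 334 and 382 CPM in EpiLC (log2 change -1.61 ± 0.07 SE, limma adjusted p 1.64e-13). Prdm14 had 409, 234 and 666 counts in ESC and 16, 0 and 0 counts in EpiLC, and its log2 change of -7.14 was -5.67 without EpiLC replicate 3 and -8.69 without EpiLC replicate 1. Klf4 had 1161, 766 and 1500 counts in ESC and 36, 9 and 5 counts in EpiLC, and its log2 change of -5.7 was -4.67 without EpiLC replicate 3 and -6.5 without EpiLC replicate 1.

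Factors of the formative and primed states (41 listed, 35 tested, 22 up and 3 down) took 0.0898%, 0.0963% and 0.0925% of footprints in ESC and 0.232%, 0.237% and 0.226% in EpiLC, less than the naive factors had taken in ESC. Lin28a, which binds RNA and blocks let-7 processing, had 64.7, 91.7 and 83.2 CPM in ESC and 426, 446 and 529 CPM in EpiLC (log2 change 2.54 ± 0.11 SE, limma adjusted p 1.19e-13). Otx2, a homeodomain factor of the epiblast, had 6.95, 5.02 and 6.34 CPM in ESC and 94.8, 99.6 and 110.3 CPM in EpiLC (log2 change 3.98 ± 0.19 SE, limma adjusted p 5.53e-13). Sox3, Zic2, Sall2 and Pou3f1 also rose, and Sall3, Zeb1 and Meis2 fell. Factors shared by both states (27 listed, 27 tested, 3 up and 1 down) overlapped at 0.4% ± 0.0109 in ESC and 0.404% ± 0.00588 in EpiLC. Utf1, a chromatin-bound factor of pluripotent cells, had 241, 245 and 219.6 CPM in ESC and 565, 615 and 439 CPM in EpiLC (log2 change 1.142 ± 0.1 SE, limma adjusted p 3.03e-09), Tead2 and Myc rose too, and Sox2 fell from a mean of 312 to 40.1 CPM.

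Dnmt3b, which methylates new sites in DNA, had the largest gain of share among the listed nuclear genes, with 118, 126 and 99.8 CPM in ESC and 1279, 1285 and 1508 CPM in EpiLC (log2 change 3.56 ± 0.09 SE, limma adjusted p 3.27e-17). DNA and histone modifying enzymes were nonetheless 7.33% lower in share (75 listed, 74 tested, 5 up and 8 down), a change that was -4.12% with counts divided by length, with Dnmt3a among those that rose and the demethylases Kdm3a and Kdm3b among those that fell. Remodelling and structural chromatin proteins overlapped (95 listed, 91 tested, 10 up and 7 down). Supt6, which handles histones around elongating polymerase, had 394, 360.5 and 359 CPM in ESC and 713, 770.5 and 855 CPM in EpiLC (log2 change 1.04 ± 0.07 SE, limma adjusted p 2.99e-10). Histones overlapped as well (76 listed, 61 tested, 5 up and 3 down). Hist3h2a had 162, 152 and 138 CPM in ESC and 461, 527 and 415 CPM in EpiLC (log2 change 1.59 ± 0.09 SE, limma adjusted p 5.84e-12), but histone genes share near-identical copies and only uniquely mapped reads were counted, so these values are uncertain.

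DNA replication and repair proteins had a lower share with few genes past the fold limit (79 listed, 79 tested, 1 up and 4 down). They took 2.63%, 2.56% and 2.57% of footprints in ESC and 2.08%, 2.04% and 2.12% in EpiLC, 19.6% lower, and 41 were lower and 8 higher by adjusted p alone, a rule that 58.7% of all tested genes met in either direction. Msh6, which recognises mismatched bases, had 1705, 1520 and 1563 CPM in ESC and 680.2, 667 and 635 CPM in EpiLC (log2 change -1.31 ± 0.06 SE, limma adjusted p 6.45e-13). Splicing factors and hnRNPs were 12.2% higher (105 listed, 101 tested, 6 up and 0 down). Esrp1, a splicing regulator of epithelia, had 6.95, 5.44 and 1.94 CPM in ESC and 183, 177 and 191 CPM in EpiLC (log2 change 5.59 ± 0.28 SE, limma adjusted p 1.31e-12), a log2 change that was 4.83 without ESC replicate 3 and 6.05 without ESC replicate 1. Zinc finger proteins were 8.14% lower (470 listed, 336 tested, 18 up or 5.36% and 47 down or 13.99%). Among them Zfp608 had 15, 2 and 0 counts in ESC and 235, 122 and 280 counts in EpiLC and passed the filter through EpiLC only. Ribosome biogenesis proteins were 5.31% lower in share (84 listed, 84 tested, 0 up and 0 down), a change that was -3.05% without ESC replicate 1 and 0.669% with counts divided by length. By limma adjusted p alone 11 were higher and 27 lower, beside 58.7% of all tested genes in either direction. Nuclear pore, lamina and import proteins overlapped (62 listed, 59 tested, 1 up and 3 down).

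The translation machinery split. Cytosolic ribosomal proteins (88 listed, 58 tested, 2 up and 4 down) took 1.35%, 1.36% and 1.42% of footprints in ESC and 1.597%, 1.58% and 1.64% in EpiLC, 16.6% higher, while their share of total RNA counts was 1.16% higher. The difference between the assays was not tested. These genes have many copies in the genome, so counts of unique reads understate them. Rplp2 and Rpl10 rose, and Rps24, Rpl39l, Rpl10l and Rpl3l fell. Few genes weighed heavily in the share: the list gained 0.228 points of footprints, and Rplp2 alone 0.076, with a log2 change in total RNA of -0.003. Rack1, with the largest gain in the list, went from 0.26% to 0.338% of all footprints, while Rps24 changed by -0.0268 points. Translation factors (71 listed, 66 tested, 3 up and 2 down) were 11.99% higher, or 3.62% higher without the 10 genes with the most footprints, Eef2 among them. Aminoacyl-tRNA synthetases, which charge tRNAs (39 listed, 39 tested, 0 up and 1 down), took 1.72%, 1.76% and 1.75% of footprints in ESC and 1.31%, 1.32% and 1.33% in EpiLC, 24.2% lower. Of these, 27 were lower and 2 higher by limma adjusted p alone, beside 58.7% of all tested genes in either direction, and Tars alone fell past both limits.

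Cytoskeletal proteins (89 listed, 85 tested, 25 up and 5 down) took 2.99%, 3.11% and 3.17% of footprints in ESC and 3.83%, 4.01% and 3.703% in EpiLC, 24.5% higher, or 37.9% higher without the 10 genes with the most footprints. The genes up were 29.4% and those down 5.88% of the tested, beside 14.4% and 10.5% of all tested genes. Beside Tpm1 and Myh9, the keratin Krt18 rose from a mean of 40.01 to 493 CPM and the actin-binding Tagln from a mean of 8.37 to 433 CPM, and Myh10 and vinculin (Vcl) rose as well. Proteasome subunits were 13.3% lower in share (44 listed, 43 tested, 3 up and 1 down), with the interferon-inducible genes Psmb8, Psmb9 and Psme2 up. Psmb8 reached 3 CPM in EpiLC libraries only, so it had to differ, and Psmb9 was low in ESC at 2.11, 1.05 and 3.785 CPM. Chaperones (52 listed, 49 tested, 3 up and 3 down) and glycolysis enzymes (21 listed, 19 tested, 3 up or 15.8% and 2 down or 10.5%) overlapped. Of the latter, the phosphofructokinase Pfkp fell from a mean of 609.6 to 53.6 CPM and the hexokinase Hk1 from a mean of 301 to 99.8 CPM. Pfkm rose from a mean of 71.2 to 175 CPM, and Eno1b and Pfkfb3 rose too. The mean share of glycolysis enzymes was 6.34% higher in EpiLC.

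Mitochondrial proteins encoded in the nucleus were lower as groups. Subunits of oxidative phosphorylation (87 listed, 77 tested, 1 up and 3 down) took 1.99%, 1.95% and 1.98% of footprints in ESC and 1.65%, 1.67% and 1.69% in EpiLC, 15.4% lower. Mitochondrial ribosomal proteins (80 listed, 78 tested, 0 up and 1 down) took 0.587%, 0.587% and 0.585% of footprints in ESC and 0.521%, 0.518% and 0.516% in EpiLC, 11.5% lower. Genes of the mitochondrial genome, which ribosomes inside the organelle translate (13 listed, 7 tested, 2 up and 1 down), took 0.1502%, 0.229% and 0.169% of footprints in ESC and 0.374%, 0.2296% and 0.365% in EpiLC, where the lowest EpiLC library all but touched the highest ESC library.

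A class made from sequence alone differed in the same direction as the membrane list. Each of 21401 genes was classed by the hydropathy of its translated coding sequence, with a limit of 1.6 on the mean over 19 residues. Genes with a window over the limit beyond residue 40, as in most proteins that span a membrane, took 22.5%, 22.8% and 22.8% of footprints in ESC and 24.5%, 24.5% and 24.3% in EpiLC. Genes with such a window only among the first 40 residues, as in many secreted proteins, took 3.79%, 3.69% and 3.75% of footprints in ESC and 3.54%, 3.53% and 3.45% in EpiLC. Genes with no such window took 73.7%, 73.5% and 73.5% of footprints in ESC and 71.98%, 72% and 72.2% in EpiLC. The libraries of the states did not overlap in these classes, but with a limit of 1.8 the class with a window at the start only did, at 3.31%, 3.24% and 3.32% of footprints in ESC and 3.23%, 3.25% and 3.17% in EpiLC. That class, at the limit of 1.6, changed by -0.236 percentage points of footprints. Lamc1 and Spp1, which are in it, changed by -0.186 and -0.177 points, together more than the class. The class with a window beyond residue 40 changed by 1.745 points. Of its 3106 tested genes, 583 rose (18.8%) and 352 fell (11.3%), beside 14.4% and 10.5% over all tested genes. It shares with the membrane list Lrp2 and Fat1, which gained 0.232 and 0.206 points. It also held Eef2 (0.206 points) and the secreted Col18a1 (0.0888), Lama5 (0.0861) and Lamb1 (0.0614). Fn1 was in the class with no window.

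Total RNA gave shares to set beside those of footprints. Secreted genes took 1.78% ± 0.0238 in ESC and 1.58% ± 0.0887 in EpiLC of total RNA counts (SD, n = 3), membrane genes 6.21% ± 0.0263 in ESC and 7.53% ± 0.174 in EpiLC, and nuclear genes 17.5% ± 0.0962 in ESC and 16.9% ± 0.275 in EpiLC. The direction was that of the footprints in each of these 3 places. Cytoplasmic genes took 13.9% ± 0.164 in ESC and 13.8% ± 0.232 in EpiLC of total RNA counts, beside 13.9% ± 0.163 in ESC and 14.5% ± 0.171 in EpiLC of footprints, where the share was 4.71% higher, or 2.08% higher without the 10 genes with the most footprints. Mitochondrial genes took 2.52% ± 0.0722 in ESC and 2.32% ± 0.04296 in EpiLC, beside 2.74% ± 0.0189 in ESC and 2.51% ± 0.08196 in EpiLC of footprints. The difference between the assays was not tested.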

How the data were processed

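Ribosome profiling libraries were made with the TruSeq kit. The deposited values are whole-number counts per gene, which the authors made by trimming (cutadapt 1.14), alignment to mm10 (STAR 2.5.3a) and counting of uniquely mapped sense reads on coding sequences (featureCounts 1.5.3), with the tools as in the submitters' processing notes. Counted lengths were 42 nt below the coding length for 16905 of 21407 genes, since the first codons were left out. The handling of duplicate reads was not given in the sources used here, so reads are not independent molecules and limits from counts cover counting error only. Unique mapping undercounts families with near-identical copies.

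From the counts, CPM, RPKM and shares of all counts were computed, and genes were tested with TMM scaling, voom weights and limma 3.58.1 (edgeR 4.0.16, R 4.3.3) over the 6 footprint libraries, with Benjamini-Hochberg adjustment over the 11120 tested genes. A log2 change is on the scale of log2 CPM with the small offset of voom. The study names limma and the CPM filter in its methods and both thresholds in a figure legend, and does not name voom or TMM. The fit was also run on simulated counts, drawn with the spread of these data but with fewer changed genes. That run checks the code and not the fit under the conditions here. Alternatives included edgeR's quasi-likelihood test, DESeq2 1.42.0, other scalings and filters, and leaving out each library.

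Members and lists were chosen with earlier results of these data known. Genes named were the state markers, the 6 genes of largest gain and of largest loss of share, and, in each of the secreted, membrane and nuclear places, the 5 called genes of largest gain and of largest loss and the 2 of largest rise and of largest fall with 10 or more CPM in the higher state, all without overlap between states. Some genes that these rules name are not reported here. All other genes were named as list examples after their values were seen. Protein sequences were not used here, so coding sequences of Gencode M21 were translated for hydropathy, tagged CCDS first (20255 of 21401 genes), then the longest.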

Additional observations from a re-analysis of the deposited data

How the results depend on the processing

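The counts of 1602 higher and 1164 lower genes stayed within 1.5 times under edgeR (1595 and 1157), DESeq2 (1588 and 1142), limma-trend (1569 and 1144), total-count scaling (1645 and 1112) and a fit of all 12 libraries (1625 and 1144). With every gene that had a count, 2526 were higher. With no fold limit, 3300 were higher and 3230 lower. With at least 10 counts in every library, which leaves out genes near 0 in a state, 1106 were higher and 705 lower of 9872 tested. Without 1 library at a time, 1578 to 1650 genes were higher and 1083 to 1178 lower, and all 49 named genes kept their side, as in the other fits that tested them (12 were not tested with at least 10 counts in every library). Apart from the state markers, these genes were chosen from the same counts for large changes without overlap, so keeping their side is not independent support.

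The replicate numbers gave no clear sign of pairing between samples (correlations of deviations 0.0237, 0.0112 and 0.0626). With 3 libraries per state these correlations cannot exclude that samples of the same number were paired. With the replicate block 1594 genes were higher and 1131 lower, and 1543 and 1162 with a GC correction as well. ESC libraries 2 and 3, but not 1, correlated best with their own number.

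The secreted share changed by -2.00% with counts divided by length and by 7.25% without 6 genes, an alternative chosen after seeing the data. The membrane share changed by 11.3% and 14.8% under the same settings, and the nuclear share by -0.43% by length. The share of ribosome biogenesis proteins turned to 0.669% by length. The causes were not tested. Without 1 library the change ranged from -11.92% to -8.03% (secreted), 18.3% to 20.8% (membrane), -4.70% to -3.33% (nuclear) and 15.3% to 18.4% (cytosolic ribosomal proteins), and the distance between states from 17.3% to 17.8%. Of 396 alternatives for single lists, 373 moved by less than the replicate spread.

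With a hydropathy limit of 1.4 the changes were -10.6% (start only), 3.82% (beyond the start) and -1.603% (no window), and with 1.8 they were -2.17% and 11.97% for the first 2 classes, the first with overlapping libraries. EpiLC replicate 2, the shallowest library, limits what can be read of genes under 1.12 CPM.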

Other observations

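Genes in no list were chosen after their values were seen, from those with the largest loss or gain of share among the called. Asns is described above. Ckb, a creatine kinase, fell from a mean of 1210 to 176 CPM (log2 change -2.82), Upp1, a uridine phosphorylase, from a mean of 782 to 98.5 CPM (-3.0), and Bcat1, which starts the breakdown of branched-chain amino acids, from a mean of 815 to 245 CPM (-1.76). Tdh, threonine dehydrogenase, had 477, 561 and 542 CPM in ESC and 32.2, 13.1 and 10.5 CPM in EpiLC (log2 change -4.99 ± 0.24 SE, limma adjusted p 4.41e-13). Nes, the intermediate filament nestin, rose from a mean of 67.2 to 458 CPM (log2 change 2.73), and Dusp6, a phosphatase of ERK, from a mean of 9.2 to 348 CPM (5.31). Kif1a, a kinesin, had 12.2, 5.23 and 4.75 CPM in ESC and 502, 545 and 495 CPM in EpiLC (log2 change 6.21 ± 0.22 SE, limma adjusted p 8.70e-15). Each of these genes kept the states apart in every library.

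Dlgap1, a scaffold protein of synapses, had 194, 439.8 and 541 CPM in ESC and 921, 831 and 1195 CPM in EpiLC (log2 change 1.41 ± 0.22 SE, limma adjusted p 1.64e-05), with ESC libraries that differed among themselves. Its log2 change in total RNA was -1.23 and did not pass the threshold (limma adjusted p 0.431), and the difference between the assays was not tested. Whether these footprints came from translation of Dlgap1 mRNA was not tested either, so its values are uncertain.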
